A study of Mus musculus with 24 samples.

Results

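Type I interferon response genes are 42 genes that interferon switches on, together with the interferon regulatory factors (Irf1, Irf7, Irf9) and the signal transducer Stat2 that switch them on. They were taken by name from the 55417 genes of a read count table of mouse entorhinal cortex, and all 42 were found in it. Bulk RNA was sequenced from the subdissected entorhinal cortex of adult mice aged 2 to 4 months in 24 libraries. Every library, vehicle included, came from Nop-tTA Line S mice (MMRRC strain #31779) crossed to TRE-GlyCl-YFP mice of Line 9531 (Jax #29301) and had the genotype tg/tg. The cross pairs a tetracycline transactivator under the neuropsin (Nop) promoter, which is used to reach superficial entorhinal neurons, with a GlyCl-YFP transgene under a tetracycline-responsive element. No group lacked the transgenes. The 4 groups of 6 libraries were vehicle (Veh, 4 females and 2 males) and 1, 2 and 3 days after GlyCl activation (1DPI, 2DPI and 3DPI, 3 females and 3 males each). The labels name neither the activating agent nor the time at which vehicle tissue was taken. The series' title asks about survival that depends on activity in the adult entorhinal cortex, and its design sets each day against vehicle. Total reads ran from 16.6 to 23.7 M (1e6 reads) per library.

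Type I interferons are secreted cytokines that act through a receptor made of Ifnar1 and Ifnar2. The receptor's kinases phosphorylate STAT proteins, STAT2 among them, which join IRF9 into a factor that binds interferon-stimulated response elements (ISREs) in promoters. The induced proteins sense or degrade foreign nucleic acid, block viral entry and replication, tag proteins with ISG15, and feed back on the pathway. In brain the response is carried by microglia, astrocytes, endothelial cells and neurons to different degrees, and microglia are known for a state marked by these genes. RNA of the whole dissected tissue does not show which cells made it. Ifit1 and Isg15, the genes given as marks of this response, were both counted in all 24 libraries.

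The promoters are shown because the factor that holds STAT2 and IRF9 binds response elements there, and because these can be looked for without the counts. The members were taken by name and not by this element. RefSeq windows (GRCm38.p6) from 250 bases before to 50 bases after the start of transcription were at hand for 32 of the 42 members. The core searched was GAAANNGAA on both strands, overlapping matches included. It lay in the windows of 18 of 32 members (56.2%) and in those of 9.76% of 27025 genes. With a further A after the core, the shares were 46.9% and 3.99%. The gamma-activated site TTCNNNGAA, which STAT dimers bind and which reads the same on both strands, lay in 10 of 32 members (31.2%) and in 9.55% of genes. Among members with a window, the core lay in 7 of 10 that rose at day 3 against vehicle and in 11 of the 22 others. The gamma-activated site lay in 1 of these 10 and in 9 of these 22. In 14 of the 18 members at least 1 core match began within the 200 bases before the start site. The match of Ifi44, counted among these, runs across the start site. The matches are letters in a window, not shown binding sites. The 250 bases before the start site follow for 5 members that rose at day 3 and hold the core, and for 2 that rose and lack it, all written 5′ to 3′ on the strand of the gene, with the core on either strand in capitals. Their positions are chr4:156200819-156201068 (Isg15, minus strand), chr19:34640639-34640888 (Ifit1, plus), chr12:26456453-26456702 (Rsad2, minus), chr19:34583279-34583528 (Ifit3, plus), chr19:34607707-34607956 (Ifit3b, plus), chr5:114896684-114896933 (Oasl2, plus) and chr7:141266425-141266674 (Irf7, minus).
Isg15: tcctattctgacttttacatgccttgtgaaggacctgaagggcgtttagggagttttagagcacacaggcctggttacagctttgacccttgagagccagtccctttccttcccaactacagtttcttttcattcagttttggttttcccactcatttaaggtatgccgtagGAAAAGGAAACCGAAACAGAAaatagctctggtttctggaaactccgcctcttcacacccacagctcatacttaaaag
Ifit1: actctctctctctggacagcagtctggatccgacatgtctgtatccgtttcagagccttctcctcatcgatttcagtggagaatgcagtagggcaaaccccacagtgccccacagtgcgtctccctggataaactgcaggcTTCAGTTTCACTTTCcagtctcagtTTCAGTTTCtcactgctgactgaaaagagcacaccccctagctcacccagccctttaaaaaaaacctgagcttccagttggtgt
Rsad2: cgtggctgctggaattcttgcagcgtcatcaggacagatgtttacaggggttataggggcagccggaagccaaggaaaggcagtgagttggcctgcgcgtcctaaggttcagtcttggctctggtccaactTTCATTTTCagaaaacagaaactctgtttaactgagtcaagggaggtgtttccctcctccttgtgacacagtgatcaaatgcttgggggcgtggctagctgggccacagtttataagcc
Ifit3: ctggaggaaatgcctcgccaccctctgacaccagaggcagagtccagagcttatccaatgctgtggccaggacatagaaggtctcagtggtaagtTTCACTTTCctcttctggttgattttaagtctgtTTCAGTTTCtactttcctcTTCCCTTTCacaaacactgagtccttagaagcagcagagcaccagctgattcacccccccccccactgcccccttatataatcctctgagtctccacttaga
Ifit3b: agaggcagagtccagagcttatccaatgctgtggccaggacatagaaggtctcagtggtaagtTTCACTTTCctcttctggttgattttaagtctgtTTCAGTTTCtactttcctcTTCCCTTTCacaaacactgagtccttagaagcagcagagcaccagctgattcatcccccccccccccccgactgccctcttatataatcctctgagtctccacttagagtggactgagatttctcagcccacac
Oasl2: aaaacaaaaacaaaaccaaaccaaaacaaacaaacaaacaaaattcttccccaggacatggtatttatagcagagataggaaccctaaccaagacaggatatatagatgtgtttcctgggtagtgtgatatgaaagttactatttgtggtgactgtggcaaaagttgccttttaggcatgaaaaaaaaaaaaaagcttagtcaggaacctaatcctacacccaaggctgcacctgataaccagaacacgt
Irf7: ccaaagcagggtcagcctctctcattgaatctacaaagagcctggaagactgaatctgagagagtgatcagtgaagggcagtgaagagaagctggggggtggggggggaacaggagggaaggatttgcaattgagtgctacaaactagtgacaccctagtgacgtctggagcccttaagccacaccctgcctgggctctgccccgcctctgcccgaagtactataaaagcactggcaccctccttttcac
Isg15 held 3 overlapping copies of the core that began 78, 72 and 66 bases before its start site. Ifit1 held 3, of which a pair overlapped, and Rsad2 held a single one. Ifit3 and Ifit3b held the same 3 copies within a run of 169 identical bases, so their windows are not separate examples. No core was found in the windows of Oasl2 and Irf7, which says only that these letters are not there.

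**Figure D1:**
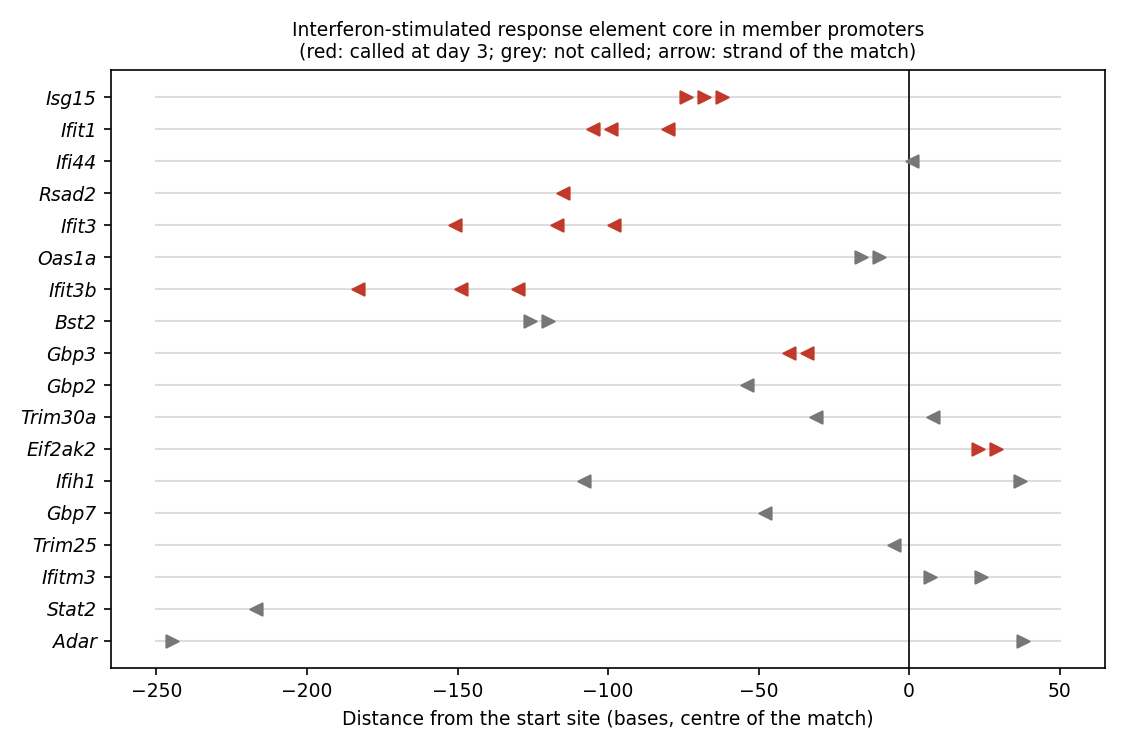
Matches of the response element core in the RefSeq promoter windows of the 18 members that hold it, by distance from the start of transcription in bases (x axis), 1 row per gene. Red rows are members that rose at day 3 against vehicle, grey rows are members that were not called, and arrows give the strand. In 14 of the 18 genes a match begins in the 200 bases before the start site.

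At 3 days after activation 15 of the 40 response genes that could be tested were higher than in vehicle, 25 were not called, and none was called lower. Levels are given in CPM (reads of a gene per 1e6 reads of the library, scaled by trimmed mean of M values), and a gene is said to have risen or fallen where edgeR's quasi-likelihood test gave a Benjamini-Hochberg adjusted p under 0.05 over the 16767 genes tested. Of the 42 members 40 had enough reads to be tested, and Oasl1 and Zbp1 did not. At day 3 against vehicle 15 members rose and 0 fell, where 0.602% of all genes tested rose and 0.0119% fell. The 15 were the ubiquitin-like modifier Isg15 and its protease Usp18, Ifit1, Ifit3, Ifit3b, Oasl2, Rsad2, Mx1, Irf7, Parp9, Parp14, Eif2ak2, Rtp4, Gbp3 and Lgals3bp. The other 25 were not called, and 14 of them had an unadjusted p under 0.05. In all 29 members were higher at that unadjusted threshold, which 3.58% of all genes passed in that direction. Over the 40 tested members the median log2 fold change was 0.63 and 39 lay above 0, where the median over all genes was -0.00 and 49% lay above 0. Within females 4 members rose (Isg15, Ifit1, Ifit3 and Lgals3bp) and within males 1 (Lgals3bp), with medians of 0.53 and 0.84 in these smaller fits. Over all genes the male fit called 10 of 17135 higher, where the fit over both sexes called 101 of 16767. The count higher over the 16961 genes of the female fit is not given here, so the member counts do not compare the sexes. In this bulk tissue more cells of a type and more RNA per cell cannot be told apart.

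Of the 40 tested members, 3 (Oas1a, Oas2 and Mx1) reached the count needed for testing only through the day 3 libraries, so their size of change is set in part by that filter. The other 37 reached it without them, and 14 of those rose. In 14 of the 15 members that rose, at least 5 of the 6 day 3 libraries lay above every vehicle library, and Gbp3 had 3. The 15 were picked by the test on these same libraries, so this count describes them and adds no evidence. Its share over all genes was not taken. All 6 day 3 libraries lay above all 6 vehicle libraries for 8 members, which holds for 0.579% of all genes tested. These were Ifit1, Usp18, Rsad2, Mx1, Parp9, Parp14 and Lgals3bp among the risen members, and Irf9. On the log2 scale 11 members differed by 1 or more, and 7 of these passed the test (8 and 6 without the 3 genes that entered through day 3). The share of all genes with a difference of that size was not taken.

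**Figure D2:**
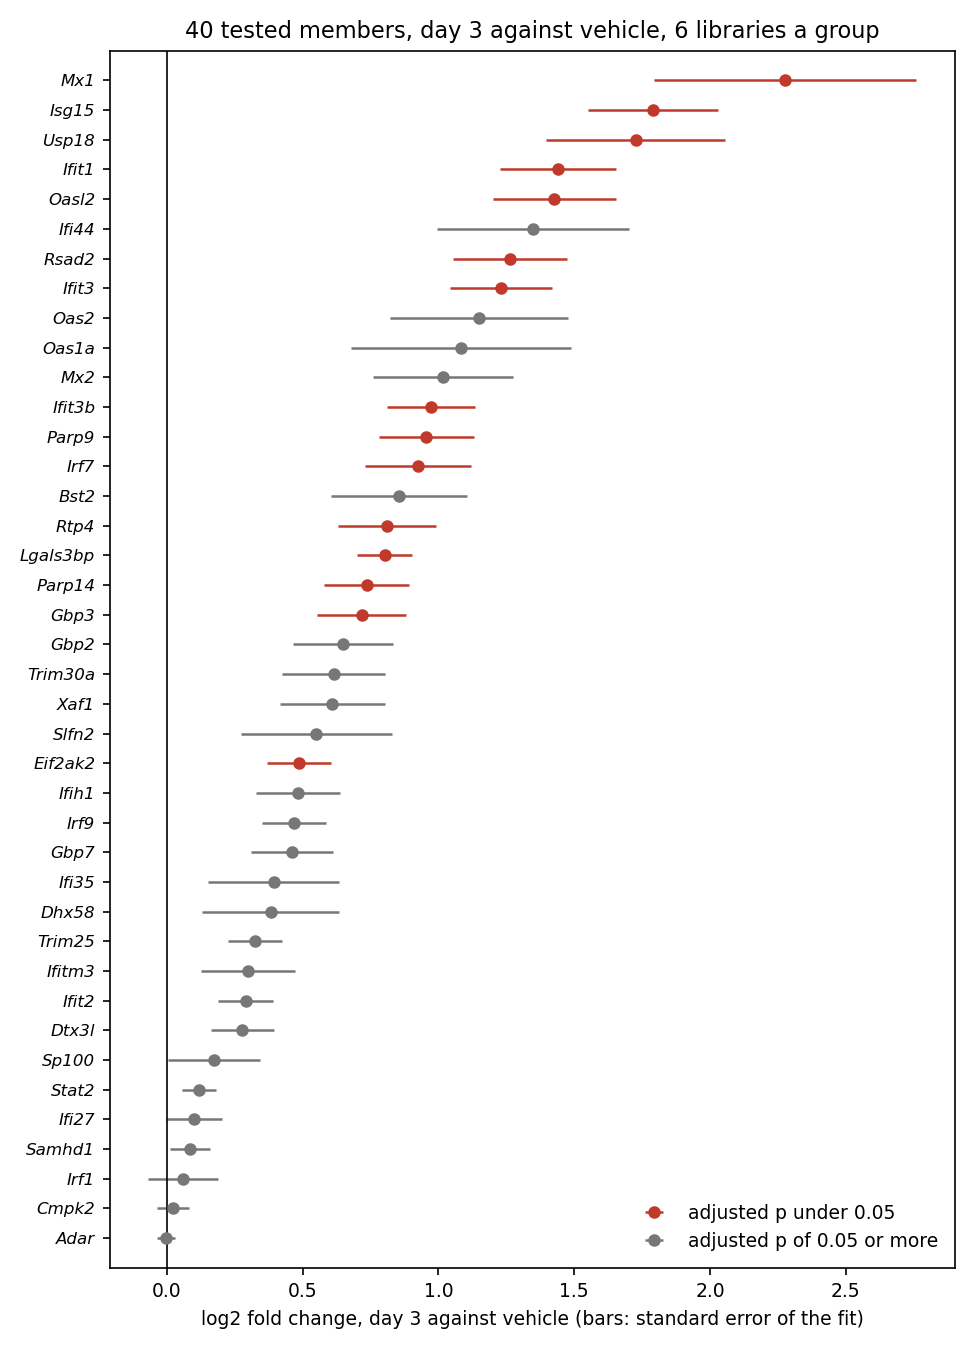
Log2 fold change of the 40 tested members at day 3 against vehicle (x axis), with bars of 1 standard error, from the edgeR fit over 24 libraries. Red points are the 15 members with an adjusted p under 0.05 and grey points the 25 others; the values run from 2.28 for Mx1 to -0.00 for Adar.

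The factors that drive the response differed in how far they moved. In the values that follow, 3 numbers for a group are its lowest, median and highest library. Irf7, the factor that amplifies interferon production and is itself induced by interferon, was at 1.09, 1.29 and 2.10 CPM in vehicle and at 1.86, 2.78 and 3.82 CPM at day 3. It rose by 0.93 ± 0.19 (log2 fold change ± SE throughout, n = 6 per group, edgeR adjusted p = 0.0123). At days 1 and 2 Irf7 was at 1.02, 1.33 and 1.56 CPM and at 1.14, 1.402 and 2.23 CPM, so that 5 of 6 day 3 libraries stood above all of vehicle and all 6 above day 1. Irf7 was not called without day 3 replicate 6 (edgeR adjusted p = 0.0552) or with the first digits of the animal number as a factor (0.77 ± 0.20, edgeR adjusted p = 0.0979), and its adjusted p ran from 0.00231 to 0.634 over all alternatives. Irf9, the DNA-binding part of the complex with STAT2, was at 6.12, 9.07 and 9.22 CPM in vehicle and at 10.5, 11.4 and 13.2 CPM at day 3. These groups did not overlap, yet the difference of 0.47 ± 0.12 missed the threshold (edgeR adjusted p = 0.0666). Irf9 was called with DESeq2 (adjusted p = 0.0135), without the filter on low counts (edgeR adjusted p = 0.00178) and with the first digits of the animal number as a factor (edgeR adjusted p = 0.0185). Over all alternatives its adjusted p ran from 0.00178 to 1.0. Days 1 and 2 spanned 7.20 to 11.2 and 7.54 to 11.8 CPM for Irf9, and overlapped both. Stat2 was at 23.1, 24.3 and 26.7 CPM in vehicle and at 24.1, 27.5 and 28.6 CPM at day 3, a difference of 0.12 ± 0.06 that did not pass the test (edgeR adjusted p = 0.933). Stat2 medians at days 1 and 2 were 25.2 and 25.1 CPM. Irf1, a factor induced chiefly by interferon gamma, was at 3.28, 3.67 and 4.63 CPM in vehicle and at 3.34, 3.71 and 5.02 CPM at day 3, with medians of 4.10 and 4.07 CPM between. The log2 fold change of Irf1 was 0.06 ± 0.13 (edgeR adjusted p = 0.999) and its groups lay over each other.

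Isg15, a ubiquitin-like protein that is joined to other proteins and also secreted, and Usp18, the protease that removes it and holds back the receptor, rose together. Isg15 was counted at 0.666, 0.887 and 1.45 CPM in vehicle and at 1.44, 3.47 and 4.06 CPM at day 3. Days 1 and 2 gave 0.910, 1.28 and 1.61 CPM and 0.992, 1.38 and 2.07 CPM. Its log2 fold change at day 3 was 1.79 ± 0.24 (edgeR adjusted p = 2.74e-05). A single day 3 library, replicate 3, sat at the vehicle level, and the other 5 lay above every library of the other groups. Usp18 was a rare transcript, with 54 reads over the 6 vehicle libraries and 173 at day 3. It stood at 0.223, 0.361 and 0.768 CPM in vehicle and at 0.781, 1.43 and 2.26 CPM at day 3. The day 3 libraries lay above all 18 others, and Usp18 rose by 1.73 ± 0.33 (edgeR adjusted p = 0.00427). Days 1 and 2 had Usp18 medians of 0.500 and 0.506 CPM. Trim25, a ubiquitin ligase that activates the RNA sensor RIG-I, had medians of 7.77 CPM in vehicle and 9.52 CPM at day 3 and was not called (0.32 ± 0.10, edgeR adjusted p = 0.234).

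The IFIT proteins bind foreign RNA ends and block their translation. Ifit1 stood at 1.09, 1.48 and 1.72 CPM in vehicle and at 2.53, 4.17 and 5.28 CPM at day 3, groups that did not overlap. Days 1 and 2 had Ifit1 medians of 1.48 and 1.75 CPM, with 1 day 1 library at 2.74 CPM, above the lowest day 3 library. Ifit1 rose by 1.44 ± 0.21 at day 3 (edgeR adjusted p = 0.000188). Ifit3, which stabilises IFIT1 on RNA, was at 3.01, 4.12 and 5.68 CPM in vehicle and at 5.59, 10.3 and 12.7 CPM at day 3, a rise of 1.23 ± 0.19 (edgeR adjusted p = 0.000286). Its copy Ifit3b was at 1.87, 3.08 and 4.05 CPM and at 3.73, 6.46 and 7.49 CPM, a rise of 0.97 ± 0.16 (edgeR adjusted p = 0.000769). In each of these 2 genes 5 of 6 day 3 libraries lay above every vehicle library. Their sizes are uncertain, since 51.2% of the 50-base stretches of Ifit3 also occur in Ifit3b and the way shared reads were counted is not given in the sources used here. Medians at days 1 and 2 were 4.29 and 4.62 CPM for Ifit3 and 3.11 and 2.92 CPM for Ifit3b, near vehicle. Ifit2 was the IFIT with the most reads and the one that was not called against vehicle (0.29 ± 0.10, edgeR adjusted p = 0.453). It was at 9.56, 10.3 and 10.6 CPM in vehicle, at 8.36, 9.16 and 9.58 CPM at day 1 and at 9.50, 11.6 and 15.9 CPM at day 3. Day 1 was its lowest group, and against day 1 Ifit2 rose by 0.44 ± 0.10 (edgeR adjusted p = 0.0291). That call was lost in 7 of the 24 fits that each left out 1 library (day 1 replicates 1, 2, 3, 5 and 6, day 3 replicates 1 and 6).

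**Figure D3:**
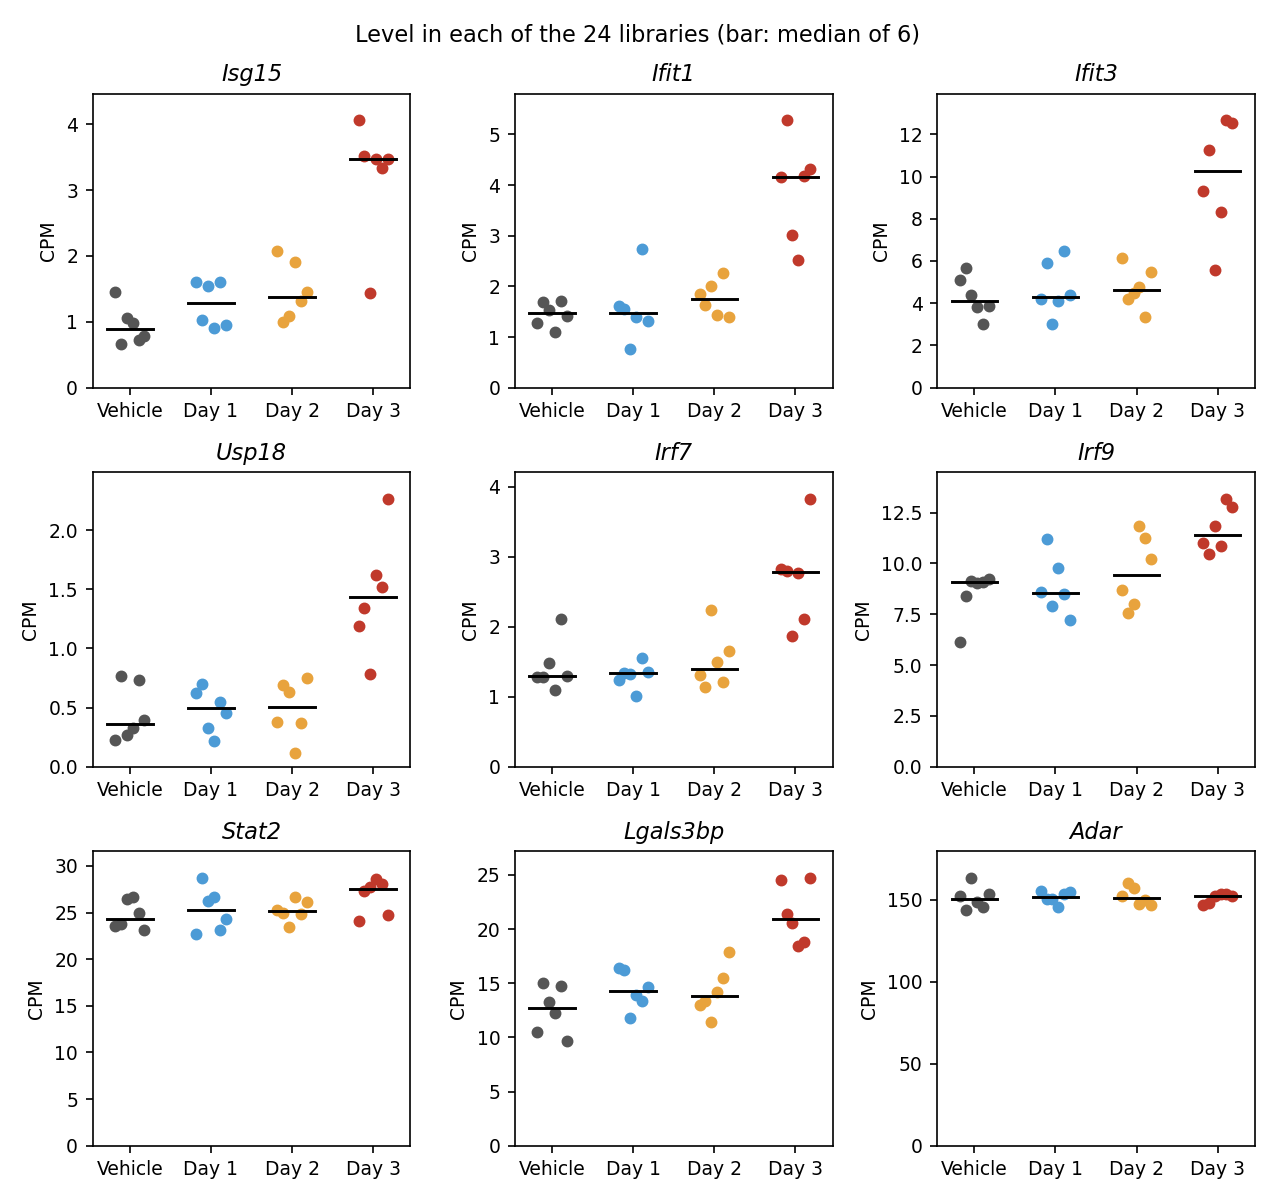
CPM of 9 members in each of the 24 libraries (points, y axis from 0) by group (x axis), with the group median as a bar. At least 4 of the 6 day 3 points lie above all other groups for Isg15, Ifit1, Ifit3, Usp18, Irf7 and Lgals3bp, while the groups of Stat2 and Adar overlap throughout.

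Among the oligoadenylate synthetase genes, whose products make the messenger that activates the ribonuclease RNase L, Oasl2 rose, Oas1a and Oas2 were not called, and Oasl1 had too few reads to be tested. Oasl2, a related protein, was at 1.19, 1.90 and 2.77 CPM in vehicle and at 2.65, 5.61 and 6.37 CPM at day 3. The rise was 1.43 ± 0.23 (edgeR adjusted p = 0.000457), and days 1 and 2 had medians of 2.38 and 2.29 CPM. Oas2 had 36 reads in vehicle and 84 at day 3 (1.15 ± 0.33, edgeR adjusted p = 0.163). Oas1a had 39 and 83 reads (1.08 ± 0.40, edgeR adjusted p = 0.564), and 57.6% of its 50-base stretches also occur in Oas1g. Neither of these differences passed the test, although their point sizes exceed that of Irf7. Unlike Irf7, both genes reached the count needed for testing only through the day 3 libraries, which in part sets their size. Oasl1, which was not tested, had 13 reads in vehicle, 11 and 19 at days 1 and 2 and 57 at day 3. Its libraries ran from 0 to 0.283 CPM in vehicle and from 0.196 to 0.956 CPM at day 3.

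Of the direct antiviral effectors, Rsad2 and Mx1 rose. Rsad2, or viperin, which makes a chain-terminating nucleotide, was at 0.849, 1.16 and 1.503 CPM in vehicle and at 1.81, 2.62 and 4.17 CPM at day 3 (1.26 ± 0.21, edgeR adjusted p = 0.000769). Its medians of 1.27 and 1.44 CPM at days 1 and 2 lay near vehicle, and no vehicle or day 1 library reached the lowest day 3 library. Mx1, a GTPase that traps viral ribonucleoprotein, had 17, 40, 22 and 82 reads in vehicle and at days 1, 2 and 3. It stood at 0, 0.159 and 0.278 CPM in vehicle, at 0.0535, 0.266 and 0.674 CPM at day 1, and at 0.421, 0.549 and 1.18 CPM at day 3. Its fitted difference at day 3, 2.28 ± 0.48 (edgeR adjusted p = 0.0132), rests on these few reads, and Mx1 was tested only because of its day 3 libraries. Its relative Mx2 had 74 reads in vehicle and 153 at day 3 and was not called (1.02 ± 0.26, edgeR adjusted p = 0.0682). Bst2, the tetherin that holds virus at the cell surface, had medians of 2.23 and 3.97 CPM (0.85 ± 0.25, edgeR adjusted p = 0.183). Ifitm3, which blocks viral fusion, spread more within day 3 than between groups, from 3.61 to 11.2 CPM (0.30 ± 0.17). Samhd1 and Cmpk2, enzymes of nucleotide metabolism, were at medians of 14.96 and 22.9 CPM in vehicle and 16.0 and 24.7 CPM at day 3. Cmpk2 stands beside Rsad2 in the genome, yet its log2 fold change was 0.02 ± 0.06 where that of Rsad2 was 1.26.

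Of the nucleic acid sensors among the members, Eif2ak2 rose. Eif2ak2, the kinase PKR that halts translation on double-stranded RNA, was at 5.14, 6.03 and 7.62 CPM in vehicle and at 7.33, 8.65 and 9.76 CPM at day 3. It rose by 0.49 ± 0.12, just inside the threshold (edgeR adjusted p = 0.0440). The call was lost in 13 of the 24 fits that each left out 1 library. Days 1 and 2 had Eif2ak2 medians of 6.36 and 6.20 CPM. Ifih1, the RNA sensor MDA5, differed by 0.48 ± 0.15 (edgeR adjusted p = 0.304), and Dhx58, its regulator LGP2, by 0.38 ± 0.25 (edgeR adjusted p = 0.999). Neither was called. Adar, which edits adenosine in double-stranded RNA, had the most reads of all members, at 144, 150 and 163 CPM in vehicle and at 147, 152 and 154 CPM at day 3. Its log2 fold change was -0.00 ± 0.03, and its 4 groups could not be told apart by eye or by test. Zbp1, a sensor of Z-form nucleic acid that was too rare to test, had 13, 18 and 12 reads in vehicle and at days 1 and 2 and 49 reads at day 3.

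Among the ADP-ribosylation and ubiquitin genes, Parp9 and Parp14 rose. Parp9 was at 1.59, 1.82 and 2.41 CPM in vehicle and at 2.58, 3.53 and 4.73 CPM at day 3 (0.95 ± 0.18, edgeR adjusted p = 0.00265). Its medians at days 1 and 2, 2.38 and 2.498 CPM, fell between. Its partner Dtx3l, a ubiquitin ligase that forms a complex with it and is read from the opposite strand beside it, differed by 0.28 ± 0.12 (edgeR adjusted p = 0.760). Dtx3l had medians of 4.12 CPM in vehicle and 4.99 CPM at day 3 and was not called. Exons of these 2 genes overlap over 9.40% of Parp9, and reads there cannot be assigned without strand. Parp14 was at 2.49, 2.83 and 4.00 CPM in vehicle and at 4.05, 5.11 and 6.09 CPM at day 3, a rise of 0.74 ± 0.16 (edgeR adjusted p = 0.0128) with no overlap of the groups. Without day 3 replicate 2 it was not called. Days 1 and 2 had Parp14 medians of 3.38 and 3.36 CPM. Trim30a (0.62 ± 0.19), Xaf1 (0.61 ± 0.19) and Sp100, a nuclear body protein (0.17 ± 0.17), were not called.

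The guanylate-binding proteins are GTPases that interferon gamma induces strongly and type I interferon less so. Gbp3 was at 2.32, 2.504 and 3.78 CPM in vehicle and at 3.01, 4.18 and 6.11 CPM at day 3, and rose by 0.72 ± 0.16 (edgeR adjusted p = 0.0290). Of its day 3 libraries 3 lay within the range of vehicle, whose highest library stood apart from its group, and the call was lost in 8 of the 24 fits that each left out 1 library (5 of vehicle, 3 of day 3). Gbp3 was at 1.55, 2.61 and 3.28 CPM at day 1 and at 2.80, 3.29 and 4.07 CPM at day 2. Gbp7 was at 3.79, 4.41 and 4.96 CPM in vehicle, at 3.03, 3.42 and 4.85 CPM at day 1, at 2.93, 5.17 and 6.16 CPM at day 2 and at 4.43, 6.34 and 7.27 CPM at day 3. It was not called against vehicle (0.46 ± 0.15, edgeR adjusted p = 0.355) and rose against day 1, its lowest group (0.70 ± 0.15, edgeR adjusted p = 0.0208). That call was lost in 7 of the 24 fits that each left out 1 library (day 1 replicates 1, 3 and 6, day 3 replicates 1, 2, 5 and 6). Gbp2 had medians of 2.62 and 4.53 CPM and was not called (0.65 ± 0.18, edgeR adjusted p = 0.156).

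Lgals3bp, a secreted glycoprotein that binds galectins, gave the lowest adjusted p of the members. It was at 9.62, 12.8 and 15.1 CPM in vehicle, at 11.8, 14.3 and 16.4 CPM at day 1, at 11.4, 13.8 and 17.9 CPM at day 2 and at 18.4, 20.97 and 24.7 CPM at day 3. All 6 day 3 libraries lay above all 18 others, and the rise against vehicle was 0.80 ± 0.10 (edgeR adjusted p = 1.19e-05). Rtp4, a transporter chaperone of the same response, was at 1.17, 1.45 and 1.59 CPM in vehicle and at 1.48, 2.54 and 3.12 CPM at day 3 (0.81 ± 0.18, edgeR adjusted p = 0.0238). Its days 1 and 2 had medians of 1.30 and 1.45 CPM, and the call was lost in 6 of the 24 fits that each left out 1 library (vehicle replicates 1, 4 and 6, day 3 replicates 2, 5 and 6). Ifi44 had 61 reads in vehicle and 140 at day 3 and was not called (1.35 ± 0.35, edgeR adjusted p = 0.0942). Slfn2 (0.55 ± 0.28), Ifi35 (0.39 ± 0.24) and Ifi27, a mitochondrial protein (0.10 ± 0.10), were not called either.

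Compared per kilobase of exon, the 4 members with the highest levels in vehicle were not among those called. Vehicle medians were 18.5 CPM per kb for Adar, 11.2 for Ifi27, 9.5 for Ifitm3 and 5.496 for Cmpk2, and below them 4.48 for Lgals3bp and 4.11 for Stat2. Isg15 went from 1.17 to 4.60 CPM per kb between vehicle and day 3, Ifit3 from 2.36 to 5.89, and Usp18 from 0.130 to 0.514. At day 3 Isg15 and Ifit3 were thus near the level of Stat2 (4.65 CPM per kb at day 3), while Usp18 remained far under it. The lowest vehicle levels were those of Mx1 (0.0419), Oasl1 (0.0412) and Zbp1 (0.0230).

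At days 1 and 2 no member was called. At day 1 against vehicle 0 of 40 rose and 0 fell, where 0.0119% of all genes rose and 0.0537% fell. At an unadjusted p under 0.05 edgeR placed 2 members higher, Mx1 (1.17 ± 0.53, adjusted p = 0.641) and Lgals3bp (0.23 ± 0.10, adjusted p = 0.633), where 2.93% of all genes passed. The median over tested members was 0.08 and 30 of 40 lay above 0, against 50.6% of all genes. At day 2 against vehicle 0 rose and 0 fell, where 0.0656% of all genes rose and 0% fell. The unadjusted count was 3 members, Isg15 (0.66 ± 0.26), Gbp3 (0.36 ± 0.17) and Dtx3l (0.26 ± 0.12), where 2.74% of all genes passed. The day 2 median was 0.14, and 35 of 40 members lay above 0 against 50.3% of all genes. DESeq2 and limma voom also called 0 members on either day. Isg15 medians were 0.887, 1.28, 1.38 and 3.47 CPM from vehicle to day 3, and the groups before day 3 overlapped. Between days 1 and 2 no member was called in either direction, where 0.0119% of all genes rose and 0% fell. The unadjusted count there was 2 members higher (2.43% of all genes), DESeq2 and limma voom called 0, and the median difference was 0.02.

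Set against the earlier days instead of vehicle, day 3 was again the higher group. Against day 1, 14 members rose and 0 fell, where 0.602% of all genes rose and 0.0477% fell. Against day 2, 7 rose and 0 fell, where 0.119% of all genes rose and 0.0119% fell. These comparisons share the day 3 libraries, so they are not separate evidence. Within either sex 0 members rose against day 2, and against day 1 0 rose in females and 1 in males. With the first digits of the animal number as a factor 0 rose against day 2 and 6 against day 1. Over all genes the count higher against day 2 (20) ran from 0 to 60 across such alternatives. Against day 1 (101) it ran from 9 to 229. The count over all genes in each of these fits is not given here, so low member counts are not a result about the members alone. Leaving out 1 library at a time gave 3 to 9 members against day 2 (3 without day 3 replicate 2) and 9 to 15 against day 1 (9 without day 3 replicate 6). The 7 members called against vehicle, day 1 and day 2 alike were Isg15, Usp18, Ifit1, Ifit3, Ifit3b, Oasl2 and Lgals3bp. Against day 2 Usp18 rose by 1.56 ± 0.32 (edgeR adjusted p = 0.0394), Ifit1 by 1.14 ± 0.21 (adjusted p = 0.0116) and Isg15 by 1.13 ± 0.23 (adjusted p = 0.0259). Against day 1 Usp18 rose by 1.62 ± 0.32 (edgeR adjusted p = 0.00996), Isg15 by 1.34 ± 0.23 (adjusted p = 0.00203) and Irf7 by 1.04 ± 0.19 (adjusted p = 0.0051). Mx1, Parp9 and Parp14 were called against vehicle and against neither earlier day. Gbp7 and Ifit2 were called against day 1 and not against vehicle. All day 3 libraries lay above all day 2 libraries for 7 members (0.268% of all genes) and above all day 1 libraries for 7 (0.614%).

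**Figure D4:**
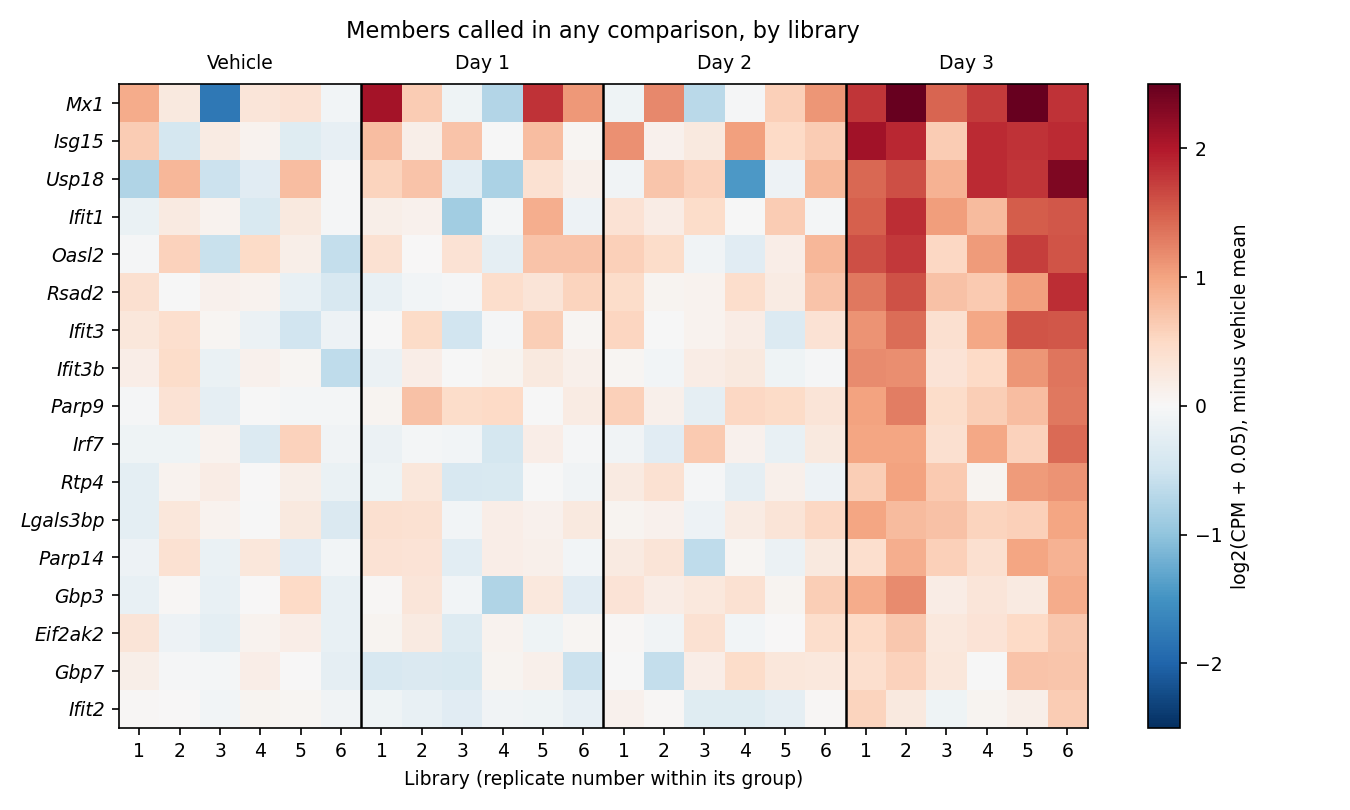
Levels of the 17 members called in at least 1 comparison (rows) in each of the 24 libraries (columns, by group), as log2(CPM + 0.05) minus the vehicle mean of that gene. Warm colours fill the day 3 columns for nearly every row, with replicates 3 and 4 paler, while the columns of days 1 and 2 are mixed, with single libraries well above or below the vehicle mean for the rarer transcripts Mx1, Isg15 and Usp18.

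Within day 3 the same libraries were often at the ends of the range. Over the 15 members that rose, replicate 6 (a male) was the highest of the 6 in 8, replicate 5 (a male) and replicate 2 (a female) in 3 each, and replicate 1 (a female) in 1. Replicate 3 (a male) was the lowest in 10 and replicate 4 (a female) in the other 5. Summed over these 15 genes the libraries ran from 35.0 to 49.4 CPM in vehicle, 38.9 to 52.3 at day 1, 44.3 to 56.6 at day 2 and 61.7 to 97.1 at day 3. The 15 were picked for being higher at day 3 in these same libraries, so that gap follows in part from the choice. Summed over all 42 members the libraries ran from 322 to 348 CPM in vehicle and from 367 to 439 CPM at day 3. Days 1 and 2 gave 332 to 358 CPM and 342 to 360 CPM. Within day 3 each sex held libraries at the upper and at the lower end. At day 1 the sums over the 15 genes were 48.75 to 52.29 CPM in females and 38.86 to 46.17 CPM in males. The sexes overlapped in vehicle, at 40.37 to 49.42 CPM in females and 35.03 and 42.46 CPM in males. They also overlapped at day 2, at 45.38 to 56.61 CPM in females and 44.25 to 49.92 CPM in males. A difference between the sexes in these sums was not tested. The day 3 difference was not shown to depend on sex: the test of the group by sex term called 0 members in edgeR, and all adjusted p-values were 0.9997. Its lowest unadjusted p-values were 0.0229 for Ifi35 (1.13 ± 0.47, male minus female) and 0.0336 for Lgals3bp (0.46 ± 0.20).

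Further genes of the pathway were followed in lists, members left out. Transcripts of the interferons themselves were at or near 0: 21 interferon genes together had 0, 5, 1 and 1 reads in vehicle and at days 1, 2 and 3, and none could be tested. Ifnb1, the interferon that infected cells make first, had 0 reads in all 24 libraries, which allows up to 0.00646 CPM over all reads (3 reads, counting error only). Ifng had 1 read, at day 1. Of 14 receptor and signalling genes 1 rose at day 3, Ptpn6, the phosphatase SHP-1 of blood-derived cells and microglia, from a median of 2.52 to 4.23 CPM (0.87 ± 0.15, edgeR adjusted p = 0.000884). Ptpn6 already differed from vehicle by 0.51 ± 0.15 at day 1 and 0.53 ± 0.15 at day 2, neither called. From day 2 to day 3 the difference was 0.34 ± 0.14 (edgeR adjusted p = 0.957). The receptor chains Ifnar1 (0.06 ± 0.04) and Ifnar2 (0.13 ± 0.09) and the kinases Jak1 (0.03 ± 0.04) and Tyk2 (-0.00 ± 0.08) were not called.

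Of 16 tested sensors and adaptors 1 rose, the RNA sensor RIG-I (Ddx58), at 3.32, 4.16 and 4.81 CPM in vehicle and at 5.29, 5.63 and 7.80 CPM at day 3 (0.59 ± 0.13, edgeR adjusted p = 0.0198). The DNA sensor Cgas (0.17 ± 0.20), its adaptor Tmem173, or STING (0.32 ± 0.15), and the RIG-I adaptor Mavs (-0.03 ± 0.12) were not called. Of 44 tested further interferon-stimulated genes 6 rose and 0 fell, with a median of 0.24 against -0.00 for all genes. Cxcl10, a chemokine that attracts activated T cells, had 7, 28, 41 and 508 reads in the 4 groups in order, and its fitted log2 fold change was 6.0 ± 0.56 (edgeR adjusted p = 5.9e-08). Ccl12, a monocyte chemokine, had 18, 27, 25 and 238 reads and rose by 3.64 ± 0.42 (edgeR adjusted p = 4.23e-06). The other 4 were Phf11d (1.97 ± 0.45), Slfn9 (1.52 ± 0.32), Rnf213, a giant ubiquitin ligase (0.61 ± 0.11), and Lgals9, a galectin (0.58 ± 0.13). Cxcl10, Ccl12 and Phf11d reached the count needed for testing only through the day 3 libraries, so their size of change is set in part by that filter. Of 19 tested genes associated with interferon gamma 2 rose, the immunity-related GTPases Iigp1 (1.29 ± 0.23, edgeR adjusted p = 0.00154) and Irgm1 (0.65 ± 0.13, edgeR adjusted p = 0.0064). In none of these lists was a gene called at day 1 or day 2 in edgeR.

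Markers of cell types were summed in each library to show what moved beside the response genes. Summed CPM of 15 microglial markers ran from 391 to 468 in vehicle and from 451 to 591 at day 3, and 6 of the 15 rose, among them Tyrobp (0.69 ± 0.12) and Fcrls (0.70 ± 0.11). P2ry12 (0.03 ± 0.06) and Tmem119 (0.06 ± 0.10), which define resting microglia, were not called. Proliferation genes ran from 5.09 to 8.20 CPM in vehicle and from 14.5 to 25.1 CPM at day 3, and 4 of 6 rose. Of these 4, Bub1b reached the count needed for testing only through the day 3 libraries. The part of the microglial and proliferation genes in the rise of the response genes was not tested. Markers of infiltrating cells were near 0 at day 3: monocyte and neutrophil markers summed to 0.396 to 0.984 CPM against 0.566 to 0.922 in vehicle, and T and NK cell markers to 1.29 to 2.31 CPM against 0.954 to 2.29. Cd3e, a T cell receptor chain, had 5 reads in vehicle and 2 at day 3. Border macrophage markers (12.3 to 18.9 against 9.75 to 21.1 CPM) and endothelial markers (272 to 338 against 272 to 355 CPM) covered the same range in both groups. Markers of excitatory neurons, which define the tissue, were abundant in all groups, at 9363 to 10020 CPM in vehicle and 9040 to 9662 CPM at day 3. Superficial entorhinal markers stood at 508 to 589 and 479 to 542 CPM, astrocyte markers at 4645 to 5503 and 4718 to 5340 CPM, and oligodendrocyte markers at 2260 to 3235 and 2325 to 3180 CPM in the same groups.

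Choroid plexus, a tissue beside the dissected region, entered some libraries. In 8 libraries Ttr was at 562 CPM or more (1 vehicle, 2 at day 1, 2 at day 2 and 3 at day 3), and in the other 16 at no more than 25.9 CPM. Red blood cell markers, at 65.7 to 160 CPM in vehicle and 93.5 to 169 CPM at day 3, overlapped. Without those 8 libraries 7 members rose at day 3 against vehicle, Isg15, Usp18, Ifit1, Ifit3, Ifit3b, Oasl2 and Lgals3bp, and the median over tested members was 0.54. With the same libraries left out 0 members rose against day 2 and 2 against day 1. Fewer libraries enter these fits, and their counts over all genes are not given here. Across the alternatives the count of all genes higher at day 3 ran from 10 to 177 against vehicle. It ran from 0 to 60 against day 2 and from 9 to 229 against day 1. A loss particular to the members was thus not shown.

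**Figure D5:**
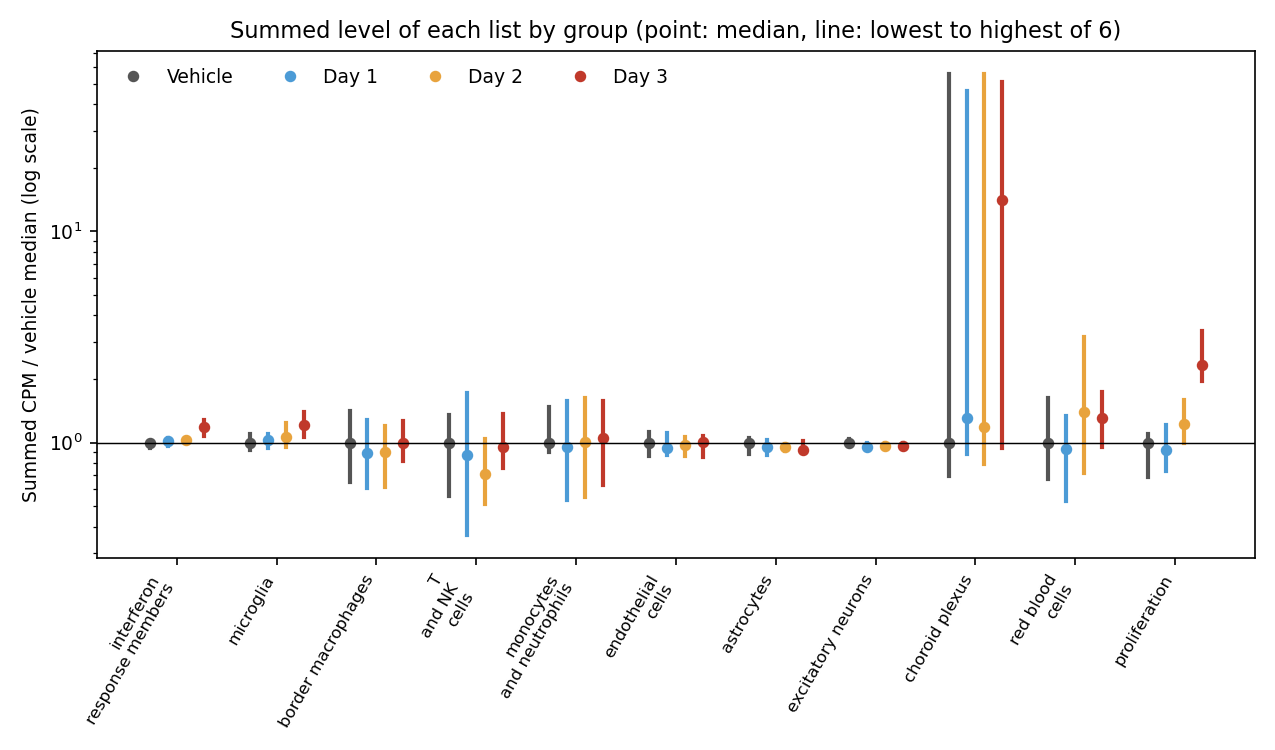
Summed CPM of the response genes and of 10 marker lists, divided by the vehicle median of each list (log axis), with a point for the median and a line from the lowest to the highest of the 6 libraries of each group. The 42 response genes, the microglial list and the proliferation list lie above 1 at day 3; choroid plexus markers span a wide range within every group.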

How the data were processed

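The authors deposited raw read counts (whole numbers) for each gene in 24 libraries, each matched to its sample by name. Per the submitters' processing notes, fastp 0.23.1, STAR 2.7.9a, DESeq2 1.32.0 and the mm39 build are named; what each did, the counting program, annotation and strand setting are not stated there or in the labels. Reads of near-identical copies or of antisense partners could not be separated. Groups came from the treatment label. The labels do not say in words that each library is a separate animal; if not, p-values measure only the spread between libraries. No 2 libraries of a group agreed within sampling noise (60 pairs).

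Counts were tested with edgeR 4.0.16 in R 4.3.3 (quasi-likelihood, two-sided): TMM factors, filterByExpr (minimum count 10, minimum total 15), group and sex over all 24 libraries, Benjamini-Hochberg adjustment over 16767 genes. The biological coefficient of variation was 8.51%. SE is the log2 fold change divided by the square root of F. The test was tried on simulated data. Alternatives used DESeq2 1.42.0 and limma 3.58.1. Symbols matched 52083 identifiers. Exon lengths and shared 50-base stretches came from GENCODE M21 (GRCm38), promoters from RefSeq (GRCm38.p6); no coordinate was carried between builds.

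The 42 members, the other lists and the alternatives were chosen with earlier results of these data known. Members called in any comparison and the regulators were named with values by group, the others by fold change. Pacsin1, also a neuronal gene, was dropped from the B and plasmacytoid dendritic cell markers after the data were seen (without it, 8.64 to 16.8 CPM in vehicle and 10.1 to 16.7 at day 3). Some genes of the lists are not reported here by name.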

Additional observations from a re-analysis of the deposited data

Results flagged for a closer look

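In 9 of 168 groups of 6 values (42 members in 4 groups), 1 library lay far from the other 5 by Dixon's gap test; chance alone flags about 1 in 20 such groups. Isg15 in day 3 replicate 3 was lowest at 1.443 CPM (next library 3.338). Samhd1 was also lowest there, at 13.77 CPM (next 15.79), while Dtx3l was highest in it, at 6.131 CPM (next 5.229). Ifi35 in day 3 replicate 6 was highest at 2.062 CPM (next 1.383), and Dtx3l in day 1 replicate 2 at 6.133 CPM (next 4.979). In vehicle, Irf9 was lowest in replicate 1 at 6.122 CPM (next 8.399) and Cmpk2 highest in it at 28.05 CPM (next 23.92). Parp9 was highest in vehicle replicate 2 at 2.407 CPM (next 1.853), and Gbp3 in vehicle replicate 5 at 3.779 CPM (next 2.714).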

How the results depend on the processing

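The count of risen members at day 3 against vehicle (15) was 4 in females, 1 (Lgals3bp) in males and 7 without the 8 libraries rich in Ttr; the other alternatives gave 11 to 20, and leaving out each library in turn 11 to 16. Against day 2 (7) it was 14 without a filter on low counts and 0 with the first digits of the animal number as a factor, in females, in males and without the Ttr-rich libraries. Leaving out single libraries gave 3 to 9: 4 without day 2 replicate 5 or day 3 replicates 1, 5 or 6, and 3 without day 3 replicate 2. Against day 1 (14) it was 6 with the animal number factor, 0 in females, 1 in males and 2 without the Ttr-rich libraries, and 9 (without day 3 replicate 6) to 15 with 1 library left out. Subsets hold fewer libraries; otherwise the cause was not tested. The member counts of 0 remained 0 in all alternatives, while the counts of 0 genes lower over all genes reached 35 at day 2 against vehicle and 17 against day 1, both without a filter. Lgals3bp was called at day 3 against vehicle in 12 of 12 alternatives, Irf7 in 8, Eif2ak2 in 7, Rtp4 in 6 and Gbp3 in 5. With 1 library left out, Eif2ak2 stayed called in 11 of 24 fits, Gbp3 in 16 and Rtp4 in 18. Over all genes the count higher at day 3 against vehicle (101) ran from 10 (males) to 177 (no filter). The same count against day 2 (20) ran from 0 to 60 and against day 1 (101) from 9 to 229.

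Of the members, 6 that were not called changed sign in an alternative at day 3 against vehicle. Adar was 0.0067 with upper-quartile factors and 0.0020 with the animal number factor. In males Irf1 was -0.0351, Ifi27 -0.0197 and Cmpk2 -0.0103. Without the Ttr-rich libraries Irf1 was -0.0730, Dhx58 -0.0404, Sp100 -0.0939 and Cmpk2 -0.0175. With 1 library left out in turn Adar ran from -0.0152 to 0.0185, Irf1 from -0.0243 to 0.1175 and Cmpk2 from -0.0031 to 0.0702. Replicate numbers were given in accession order and pair nothing, so no replicate block was fitted; with the animal number factor Irf7, Rtp4, Eif2ak2 and Gbp3 lost their call at day 3 against vehicle and Irf9 gained one. Depth limits the rarest members: Mx1, Oas1a, Oas2, Oasl1 and Zbp1 had 13 to 39 reads over the 6 vehicle libraries.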
